A study of Mus musculus with 21 samples.

Results

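The 6 genes described here, Nanos2, Nanos3, Dazl, Dnd1, Elavl2 and Tial1, encode RNA-binding proteins of germ cells and are 6 of the 24495 gene rows in the deposited read counts. They were taken by symbol, and each was present as 1 row in all 21 libraries. The libraries are bulk RNA-seq of male mouse germ cells of mixed strain background, sorted by the green fluorescence of an Oct4-GFP reporter, from embryos or pups of matings between Tex15 heterozygotes. TEX15 is a germ cell protein needed to silence transposons in fetal male germ cells. The 7 groups had 3 libraries each. They were Tex15+/- cells (HT) and Tex15-/- cells (KO) at embryonic day 16.5 (E16.5), at embryonic day 18.5 (E18.5) and at the age labelled D2.5 after birth, and Tex15 wild-type cells (WT) at D2.5. All groups carried the Oct4-GFP reporter used for sorting, and the E16.5 and E18.5 controls had already lost 1 Tex15 allele. The replicates are called biological, but whether a library held cells of 1 animal or of several is not given in the sources used here, so the p-values measure the spread between these libraries.

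Germ cells control many of their mRNAs after transcription, and these proteins are among those that do it. NANOS2 and NANOS3 are zinc finger proteins that bring mRNAs to the CCR4-NOT complex, which shortens poly(A) tails and so leads to decay or silencing of the mRNA. NANOS3 is known for keeping primordial germ cells alive, and NANOS2 for the male programme of fetal germ cells and the suppression of meiosis. DND1 binds uridine-rich sites and works with NANOS2, and its loss causes germ cell death and, on some strain backgrounds, testicular teratoma. DAZL binds mRNAs through an RNA recognition motif and regulates their translation, and germ cells need it to take up gametogenesis. ELAVL2, also called HuB, belongs to the Hu family that binds AU-rich elements. TIAL1, also called TIAR, is a widely made U-rich binding protein of stress granules that primordial germ cells need to survive.

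RefSeq start sites (assembly GRCm38.p6) were found for 5 of the 6 genes, all but Dnd1. The 250 bases before the start are shown for Nanos2 and Nanos3, which were lower at D2.5 than at E16.5, and for Dazl, which was higher. Each CG dinucleotide is in capitals and each sequence runs from 5′ to 3′ on the strand of its gene. The Nanos2 window is chr7:18987274-18987523 on the plus strand, that of Nanos3 is chr8:84176553-84176802 on the minus strand, and that of Dazl is chr17:50293621-50293870 on the minus strand.
Nanos2: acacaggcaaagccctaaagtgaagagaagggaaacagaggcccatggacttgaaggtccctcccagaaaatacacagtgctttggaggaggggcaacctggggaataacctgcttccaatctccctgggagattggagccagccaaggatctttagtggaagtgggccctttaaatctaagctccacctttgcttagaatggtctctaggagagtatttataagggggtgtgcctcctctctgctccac
Nanos3: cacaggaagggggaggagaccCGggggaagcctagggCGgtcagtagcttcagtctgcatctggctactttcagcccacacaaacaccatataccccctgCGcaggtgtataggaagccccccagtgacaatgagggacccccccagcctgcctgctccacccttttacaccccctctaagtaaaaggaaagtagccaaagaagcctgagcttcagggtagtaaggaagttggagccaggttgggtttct
Dazl: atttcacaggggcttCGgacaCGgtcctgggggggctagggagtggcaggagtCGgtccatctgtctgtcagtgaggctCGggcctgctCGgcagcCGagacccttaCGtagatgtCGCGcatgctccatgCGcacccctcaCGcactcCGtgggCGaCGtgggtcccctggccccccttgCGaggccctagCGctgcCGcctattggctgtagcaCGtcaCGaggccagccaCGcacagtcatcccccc
The Nanos2 window held 0 CG dinucleotides, that of Nanos3 held 3 and that of Dazl held 20, against a median of 6 over 32851 windows of the same length. At least 20 were found in 17.9% of all windows. The Elavl2 windows, at 6 start sites, held 10 to 21, and those of Tial1, at 2 start sites, held 19 and 22. TATAA was searched on both strands and was found in the Nanos2 window and in 22.8% of all windows, but in no window of the other members. GGGCGG, also searched on both strands, was found in 32.7% of all windows, in that of Nanos3 and in at least 1 window of Elavl2 and of Tial1. These are matches of letters, not measured binding sites.

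The labels were checked with Tex15, whose level is given in CPM, the count scaled to a common library size by gene totals and TMM factors. It was 976 ± 81.6 CPM in HT and 3.39 ± 0.435 CPM in KO at E16.5 (SD, n = 3 here and for every mean below). At D2.5 it lay between 3542 and 4339 CPM in the WT libraries, between 1765 and 2082 in HT and between 15.9 and 23.6 in KO, so no library went against its genotype label. Gene totals were 6063632 to 11884109 counts per library, and repeat names took 41.9% to 69.4% of all counts. At D2.5 between 7227 and 8279 genes had no count in a library, so low levels there are poorly measured. The summed CPM of 10 germ cell markers lay between 2290 and 8736 in all libraries, above that of each list of markers for another cell type (at most 805). Of these markers Pou5f1 is the gene whose product is OCT4. It lay between 88.3 and 155 CPM at E16.5, between 44.2 and 111 CPM at E18.5 and between 0 and 9.61 CPM at D2.5. In bulk libraries, fewer cells that express a gene and less RNA of it per cell cannot be told apart.

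Dazl had the highest level of the 6 genes per kilobase of exon in every group, at 175 to 255 CPM per kb before birth and 1181 to 1328 CPM per kb at D2.5. Dnd1 was second at E16.5, with 82.9 CPM per kb in HT and 99.2 in KO, and in both genotypes its libraries did not overlap those of the genes on either side of it. At E16.5 the libraries of the next 4 genes overlapped from each gene to the next, so their order is not settled. From E18.5 on Elavl2 was second, at 31.0 to 51.8 CPM per kb, and Nanos2 and Nanos3 were the last. Its libraries overlapped those of Dnd1, the next gene, at E18.5 and those of Tial1 at D2.5 in HT and KO, but not in WT. At D2.5 Dnd1 had fallen to 3.80 to 5.39 CPM per kb, and its libraries overlapped those of Nanos2 in each of the genotypes. Lengths were exon unions of the GENCODE annotation on GRCm38, and with the longest transcript instead only Nanos3 and Elavl2 in E16.5 KO changed places.

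**Figure D1:**
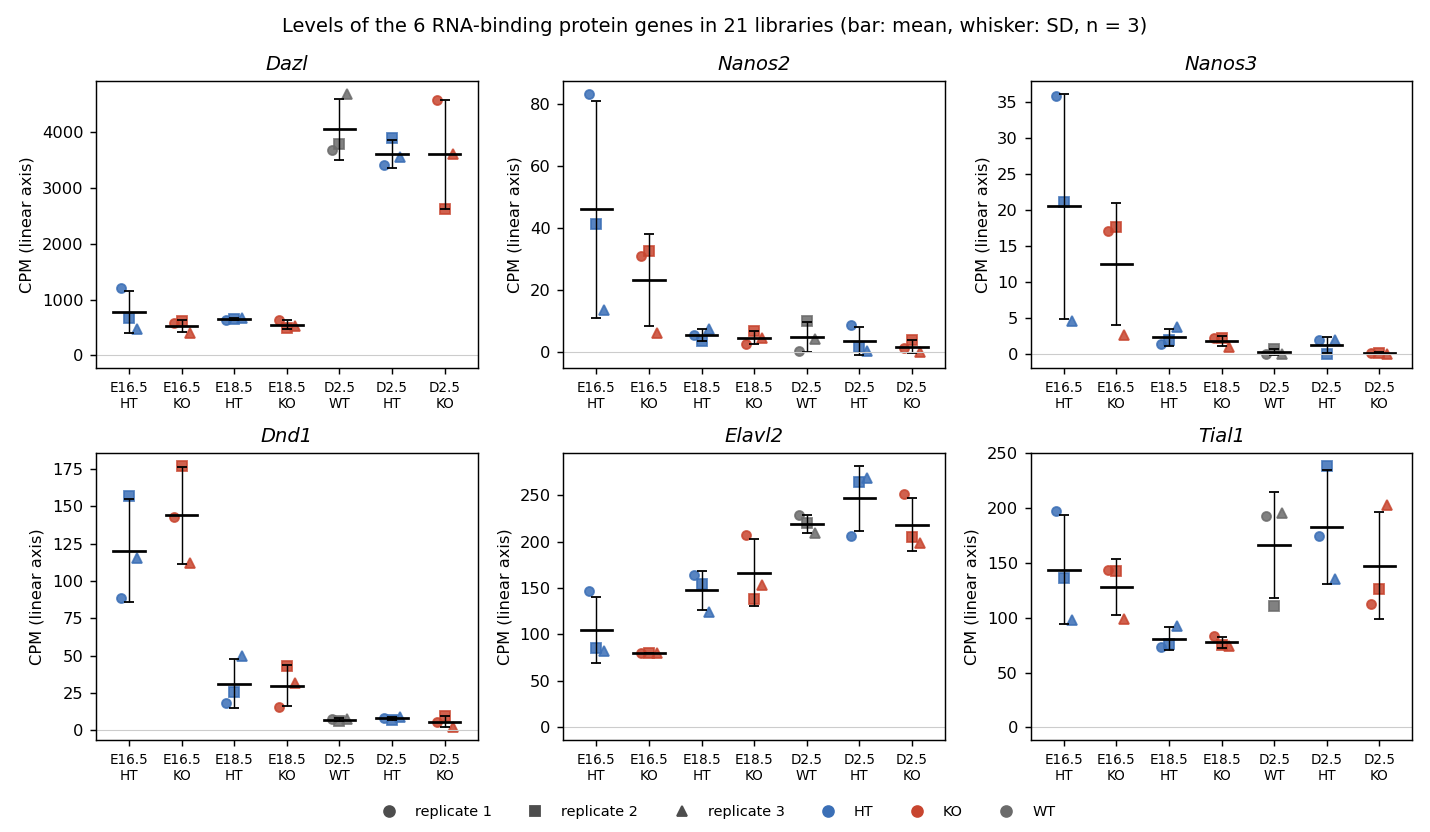
Levels of the 6 genes in CPM (linear vertical axis, different for each gene) in the 7 groups of 3 libraries. Each point is 1 library, coloured by genotype and shaped by replicate, with bars for the mean and whiskers for the SD. Nanos2, Nanos3 and Dnd1 were high at E16.5, Dazl was highest in all D2.5 libraries, and HT and KO points lie among each other at most ages.

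Nanos2 varied widely between libraries at E16.5. Its level in HT was 83.2, 41.3 and 13.6 CPM in replicates 1, 2 and 3, and in KO it was 30.8, 32.6 and 6.11 CPM. At E18.5 it was 5.44, 3.73 and 7.46 CPM in HT and 2.63, 6.67 and 4.69 CPM in KO. Replicate 3 was the lowest library of each genotype at E16.5. The HT libraries of E16.5 all lay above those of E18.5, while in KO replicate 3 of E16.5 lay among the E18.5 values. At D2.5 it was 0.353, 10.1 and 4.28 CPM in WT, 8.89, 1.52 and 0.344 CPM in HT and 1.44, 3.89 and 0 CPM in KO. The D2.5 libraries of a group thus ran from near 0 to several CPM, where a count of 3 is worth 0.457 to 0.556 CPM. An antisense gene model, Gm45058, overlaps 766 bases of Nanos2 exons. The counting's use of strand is not given in the sources used here, and without it reads of the pair cannot be told apart.

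Within each genotype at E16.5, Nanos3 followed the same order of libraries as Nanos2. It was 35.8, 21.1 and 4.61 CPM in HT and 17.1, 17.7 and 2.67 CPM in KO at E16.5. At E18.5 it was 1.44, 1.94 and 3.69 CPM in HT and 2.24, 2.26 and 1.03 CPM in KO. All 3 HT libraries at E18.5 lay below all 3 at E16.5, and the same held for KO. At D2.5 the 3 libraries of a genotype together held 4 counts in WT, 22 in HT and 2 in KO, and 4 of the 9 libraries had none. The ratio of HT to KO there was 10.1, with an exact 95% interval of 2.47 to 88.2 that covers counting error only. With HT libraries at 2.00, 0 and 1.89 CPM, the spread between libraries was as wide as the level itself. Nanos3 did not pass the minimum count of the D2.5 fit and was not tested between genotypes there.

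Dnd1 was high at E16.5 and lower at each later age. In HT it was 88.6, 157 and 115 CPM at E16.5, 18.5, 25.3 and 49.8 CPM at E18.5, and 8.17, 6.71 and 8.59 CPM at D2.5. In KO it was 143, 177 and 112 CPM at E16.5, 15.7, 42.7 and 31.3 CPM at E18.5, and 5.41, 9.27 and 1.85 CPM at D2.5. In both genotypes the 3 ages did not overlap. The WT libraries at D2.5, at 7.76, 6.07 and 7.19 CPM, lay within the range of the KO libraries. In HT at E16.5, replicate 1, the highest library for Nanos2 and Nanos3, was the lowest for Dnd1. Dnd1 overlaps Wdr55 on the opposite strand by 138 bases.

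Dazl differed little between E16.5 and E18.5 and was far higher at D2.5. In HT it was 1200, 666 and 470 CPM at E16.5, 626, 647 and 665 CPM at E18.5, and 3405, 3891 and 3549 CPM at D2.5. In KO it was 575, 613 and 409 CPM at E16.5, 637, 481 and 522 CPM at E18.5, and 4575, 2621 and 3612 CPM at D2.5. The WT libraries at D2.5 were at 3680, 3790 and 4684 CPM. Every D2.5 library lay above every fetal library, with more than 2 times the CPM of the highest.

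Elavl2 and Tial1, the Hu family and TIAR genes, moved less. Elavl2 in HT was 146, 85.4 and 82.7 CPM at E16.5, 164, 155 and 124 CPM at E18.5, and 206, 265 and 268 CPM at D2.5. In KO it was 80.4, 80.2 and 80.3 CPM at E16.5, 207, 139 and 154 CPM at E18.5, and 251, 205 and 199 CPM at D2.5. The KO libraries at E16.5 were nearly equal and all below the 3 HT libraries of that age. Tial1 in HT was 197, 136 and 98.2 CPM at E16.5, 73.6, 75.7 and 92.9 CPM at E18.5, and 174, 238 and 135 CPM at D2.5. In KO it was 143, 142 and 98.9 CPM at E16.5, 83.1, 75.0 and 74.5 CPM at E18.5, and 113, 126 and 203 CPM at D2.5. For Tial1 the E18.5 libraries of each genotype were below all others of that genotype, and the E16.5 and D2.5 ranges overlapped. The WT libraries at D2.5 were at 229, 220 and 209 CPM for Elavl2 and at 193, 110 and 195 CPM for Tial1.

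Loss of Tex15 was compared with the heterozygous state at each age, to ask whether the genes respond to it. None of the 6 genes passed the test in any genotype comparison. At E16.5, 0 of 6 were called by edgeR's quasi-likelihood test at a Benjamini-Hochberg adjusted p under 0.05, where 0.00618% of 16185 genes were called. That share was Tex15 alone. At E18.5, 0 of 6 were called against 2.14% of all genes. At D2.5, 0 of the 5 genes tested were called in KO against HT, in KO against WT and in HT against WT, where 0.153%, 0.216% and 0.00696% of genes were called. The only gene called in HT against WT was Tex15. No member had an unadjusted p under 0.05 in these comparisons, and DESeq2 and limma-voom called 0 of them. With so few calls among all genes at E16.5 and D2.5, a count of 0 among 6 is close to the background.

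The fitted differences at E16.5 were lower in KO for 5 of the 6 genes, with intervals that all included 0. Nanos2 had a log2 fold change of -0.98 (SE 0.755, 95% interval -2.76 to 0.81) and Nanos3 one of -0.70 (SE 0.838, interval -2.68 to 1.28). Dazl had -0.53 (interval -1.33 to 0.26), Elavl2 -0.37 (interval -0.92 to 0.18) and Tial1 -0.15 (interval -0.78 to 0.47), while Dnd1 had 0.27 (interval -0.33 to 0.86). The adjusted p was 0.976 for each of the 6. Elavl2 was the member whose KO and HT libraries did not overlap at E16.5, as did those of 6.25% of all genes tested. These values moved with HT replicate 1. Without that library Nanos2 had -0.23, Nanos3 -0.02, Dazl -0.08 and Elavl2 -0.05, and Tial1 turned to 0.14.

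**Figure D2:**
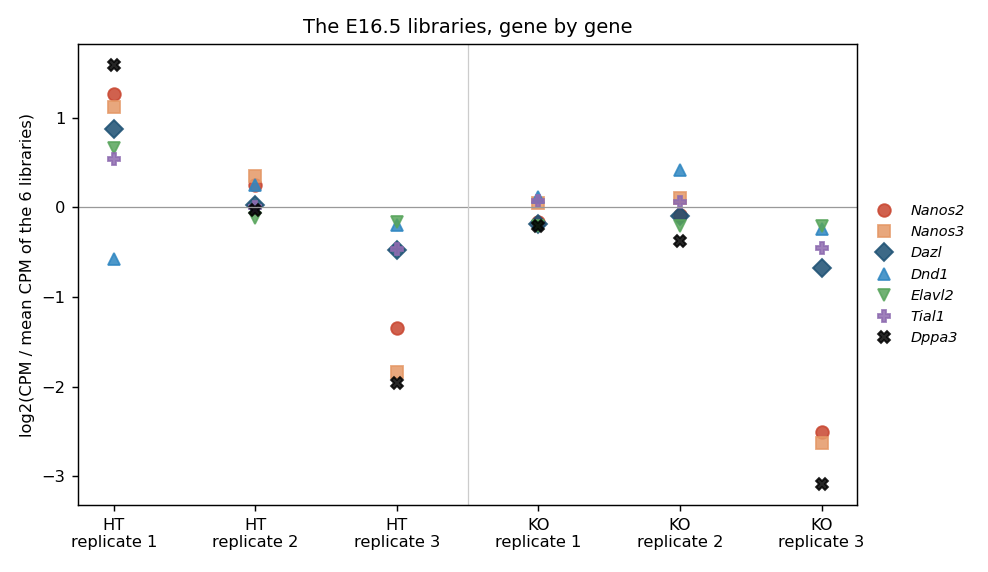
The 6 E16.5 libraries (horizontal axis) with the log2 ratio of each gene's CPM to its mean over these libraries (vertical axis), 1 point for each library and gene. Dppa3, a fetal germ cell gene, is shown beside the 6 genes. Nanos2, Nanos3 and Dppa3 are highest in HT replicate 1 and lowest in replicate 3 of both genotypes, and Dnd1 is lowest in HT replicate 1.

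The E16.5 libraries also differed in other genes. Dppa3, which is made in early germ cells, was 3146, 1027 and 269 CPM in HT and 906, 808 and 123 CPM in KO, the same order of libraries as Nanos3 within HT. Mki67, a gene of dividing cells, was 466 CPM in HT replicate 1 and 66.3 to 133 CPM in the other 5 libraries. Replicate 3 of both genotypes had the highest summed levels of 10 Sertoli cell markers, 71.1 CPM in HT and 83.7 in KO, and of 8 stromal and peritubular markers, 121 and 128 CPM. HT replicate 1 had the lowest, 19.3 and 30.03 CPM, and the highest level of the germ cell markers, 8736 CPM. Their part in the spread of Nanos2 and Nanos3 was not tested.

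At E18.5 the intervals of 5 of the 6 genes, all but Dnd1, were narrower than at E16.5. The HT and KO libraries overlapped for each of the 6, whereas those of 13.7% of all genes did not. Nanos2 had a log2 fold change of -0.24 in KO against HT (interval -0.99 to 0.50), Nanos3 -0.37 (interval -1.31 to 0.57) and Dnd1 -0.07 (interval -0.81 to 0.68). Dazl, with the narrowest interval, had -0.25 (-0.55 to 0.06), and a fall of more than 0.55 therefore lies outside it. Elavl2 had 0.17 (interval -0.19 to 0.53) and Tial1 -0.06 (interval -0.38 to 0.26). The adjusted p ran from 0.758 for Dazl to 0.994 for Dnd1. The summed level of 8 macrophage markers was 65.1 to 80.7 CPM in the KO libraries and 28.9 to 31.1 CPM in HT at this age. Of the 10 germ cell markers 1 was called lower in KO and 0 higher, against 2.14% of all genes called. Pou5f1 was 90.2, 111 and 94.9 CPM in HT and 44.2, 71.7 and 53.0 CPM in KO, without overlap. The part of these marker differences in the values of the 6 genes was not tested.

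At D2.5 Dazl and Elavl2 had the narrowest intervals of the 5 genes tested. Dazl had -0.01 in KO against HT (interval -0.32 to 0.30) and -0.17 against WT (interval -0.47 to 0.14). Elavl2 had -0.18 (interval -0.58 to 0.22) and -0.01 (interval -0.41 to 0.39). Tial1 had -0.31 (interval -0.88 to 0.25) and -0.17 (interval -0.73 to 0.40). For Dnd1 the value against HT was -0.51 (interval -2.13 to 1.10), and for Nanos2 it was -0.99 with an interval of -3.83 to 1.85, so that changes of several fold either way lie within it. The summed level of the 8 stromal and peritubular markers was 325 to 805 CPM in KO, 210 to 319 CPM in HT and 186 to 469 CPM in WT, and its part was not tested. HT against WT gave values between -0.48 for Nanos2 and 0.17 for Elavl2, all with an adjusted p of 1.0.

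**Figure D3:**
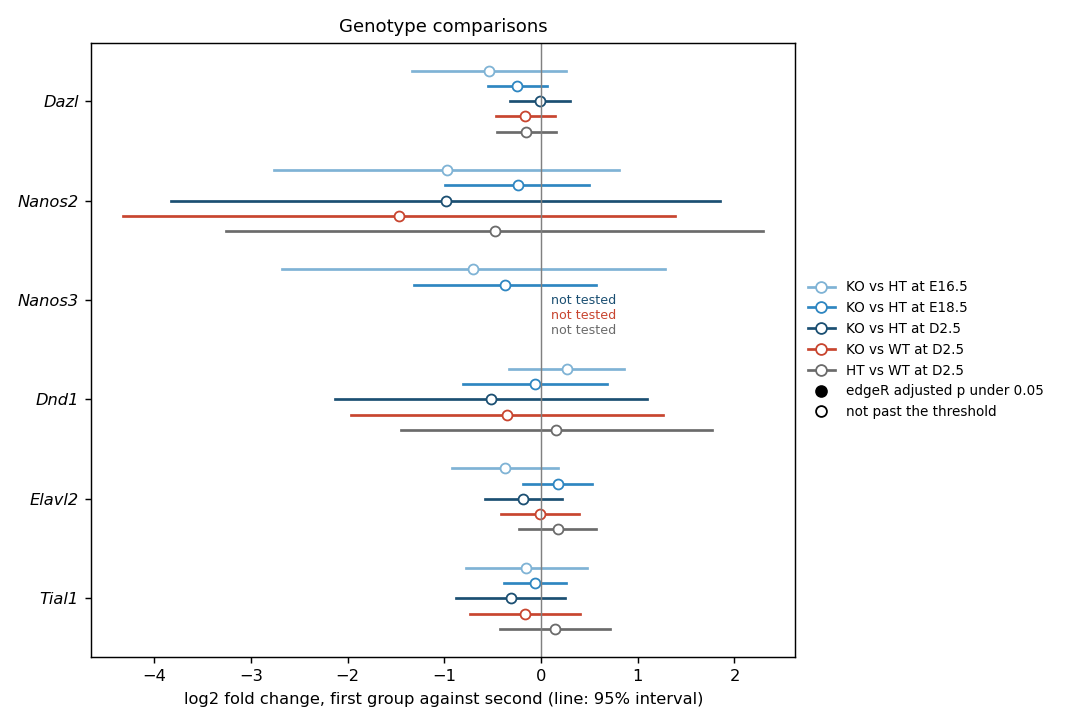
Log2 fold changes (horizontal axis, first group against second) of the 6 genes in 5 genotype comparisons, with lines for 95% intervals and open circles for values not past the threshold. Every interval includes 0, and those of Nanos2 at D2.5 are the widest. Nanos3 was not tested at D2.5.

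The difference of the KO effect between ages was tested as well. From E16.5 to E18.5, 0 of 6 genes were called, with 0.0% of 18815 genes called and none of the 6 at an unadjusted p under 0.05. Elavl2 had the smallest unadjusted p, 0.0849, with a difference of 0.56 (interval -0.08 to 1.20). From E18.5 to D2.5, 0 of 6 were called against 0.0531% of all genes. DESeq2 and limma-voom called none of the 6 in either. Nanos3 had the value farthest from 0, -2.89 with an interval of -6.24 to 0.46, and it rests on the 2 counts of D2.5 KO.

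Ages were compared within HT and within KO by contrasts of 1 fit of these 18 libraries. Each age was deposited as a table of its own, so age and any difference in handling between the tables cannot be told apart. Over the whole interval from E16.5 to D2.5, a comparison added after the data were seen, Nanos2, Nanos3 and Dnd1 fell, Dazl and Elavl2 rose, and Tial1 did not pass the test. These 5 genes were called in HT and also in KO. Against them, 48.8% of all genes were called in HT (20.2% higher and 28.6% lower) and 50.6% in KO (21.4% higher and 29.2% lower), so a call as such does not set the members apart. Markers of cell types moved over the same interval. Of 10 germ cell markers 7 fell in HT (median -1.99) and 6 in KO (median -0.89), and 1 rose in each. Of 8 stromal and peritubular markers 6 rose in each genotype, from a sum of 30.03 to 128 CPM at E16.5 to 210 to 805 CPM at D2.5, and of 10 Sertoli cell markers 4 rose. Their part in the members' changes was not tested.

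In HT from E16.5 to D2.5, Nanos2 fell from 46.0 ± 35.0 to 3.59 ± 4.63 CPM (-3.69 on the log2 scale, SE 0.963, adjusted p 0.00364 by edgeR). Nanos3 fell from 20.5 ± 15.6 to 1.30 ± 1.12 CPM (-3.99, SE 0.954, adjusted p 0.00182). Dnd1 fell from 120 ± 34.4 to 7.82 ± 0.988 CPM (-3.94, SE 0.476, adjusted p 1.27e-06). For all 3 genes every D2.5 library lay below every E16.5 library. Dazl rose from 778 ± 378 to 3615 ± 249 CPM (2.22, SE 0.267, adjusted p 1.24e-06), and Elavl2 rose from 105 ± 36.0 to 246 ± 34.8 CPM (1.23, SE 0.221, adjusted p 0.000128). Tial1 was 144 ± 49.9 and 183 ± 51.8 CPM (0.35, adjusted p 0.287).

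In KO these 5 genes were called as well. Nanos2 fell by 3.70 on the log2 scale (SE 0.998, adjusted p 0.00447), and Dnd1 fell by 4.70 (SE 0.498, adjusted p 2.13e-07). Dazl rose by 2.76 (SE 0.273, adjusted p 9.18e-08) and Elavl2 by 1.44 (SE 0.223, adjusted p 2.26e-05). Nanos3 had 434 counts in the E16.5 KO libraries and 2 in those of D2.5, a ratio of 105 with an exact counting interval of 28.9 to 870. In HT it had 657 and 22 counts, a ratio of 16.7 with an interval of 10.9 to 26.8. Both intervals cover counting error only, not the spread between libraries. The fitted 95% intervals, which include that spread, overlapped: -9.1 to -3.95 in KO and -5.98 to -2.0 in HT on the log2 scale. These calls held for all 5 genes in both genotypes under each of the 27 alternatives, though many left out no library of those compared. In HT the range over them and the value given above was -5.54 to -2.94 for Nanos2, -5.21 to -3.31 for Nanos3, -4.30 to -3.68 for Dnd1, 1.97 to 2.69 for Dazl and 1.11 to 1.57 for Elavl2. Within each genotype, 5 of the 6 genes had E16.5 and D2.5 libraries that did not overlap, against 48.5% of all genes in HT and 57.9% in KO.

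**Figure D4:**
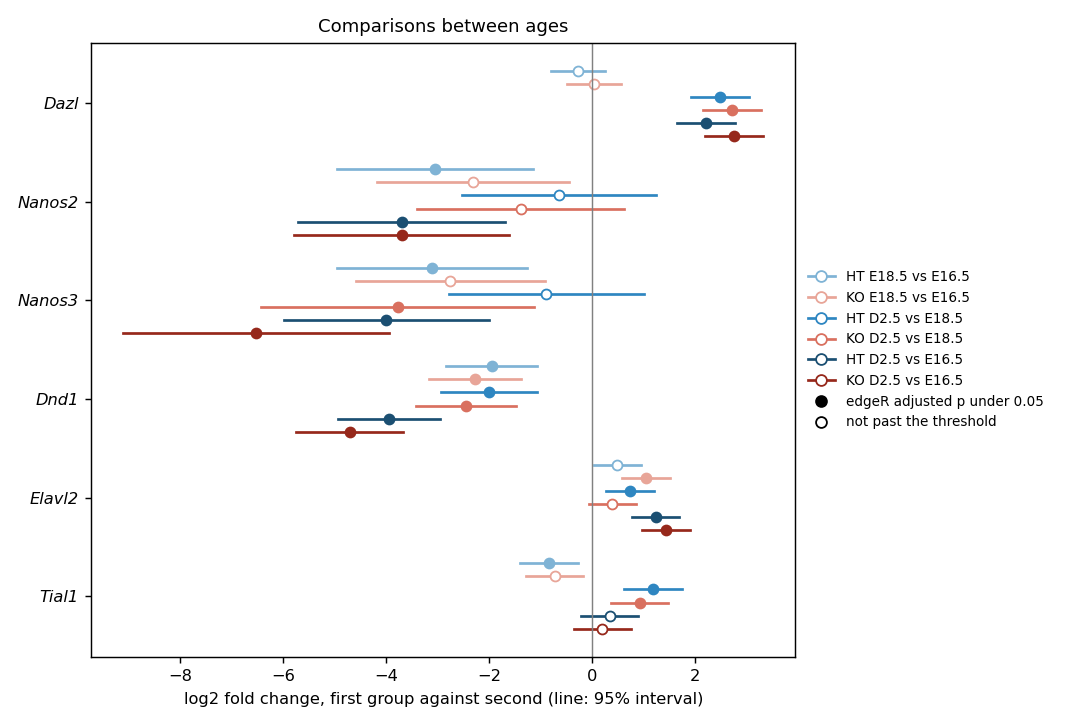
Log2 fold changes (horizontal axis, later age against earlier) of the 6 genes between ages in HT (blue) and KO (red), with lines for 95% intervals and filled circles for an edgeR adjusted p under 0.05. Values for Dazl from E16.5 to E18.5 lie near 0 and from E18.5 to D2.5 above 2, while Dnd1 is below 0 at each step. The D2.5 KO value of Nanos3 rests on 2 counts, so its place on the axis depends on the fit.

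The changes fell in different intervals for different genes. Between E16.5 and E18.5, 4 of the 6 were called lower in HT, against 13.2% of all genes called (4.81% higher and 8.39% lower). Libraries of the 2 ages did not overlap for 4 of the 6 genes in HT and 4 in KO, as for 52.4% and 51.3% of all genes. Dnd1 fell by 1.95 in HT (SE 0.426, adjusted p 0.00837), and by 2.27 in KO (SE 0.431, adjusted p 0.00835). Nanos2 fell by 3.05 in HT (SE 0.915, adjusted p 0.0349), Nanos3 by 3.11 (SE 0.884, adjusted p 0.0279) and Tial1 by 0.83 (SE 0.267, adjusted p 0.0450). In KO, where 4.54% of genes were called (1.65% higher and 2.9% lower), the 2 calls were Dnd1 and Elavl2, which rose by 1.05 (SE 0.221, adjusted p 0.0134). Nanos2 in KO had -2.31 (adjusted p 0.128), Nanos3 -2.75 (adjusted p 0.0737) and Tial1 -0.72 (adjusted p 0.111). Dazl had -0.27 in HT (adjusted p 0.473) and 0.04 in KO (adjusted p 0.942). Its KO value kept its sign in only 10 of the 27 alternatives, with a range of -0.23 to 0.09.

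Of these calls only that of Dnd1 in HT held under every alternative. Those of Nanos2, Nanos3 and Tial1 in HT were lost without HT replicate 1 of E16.5, where the values were -2.38, -2.51 and -0.61 (adjusted p 0.167, 0.134 and 0.208). They were also lost without HT replicate 2 of E16.5 (-3.20, -3.16 and -0.94) and without any HT library of E18.5, with adjusted p from 0.0521 to 0.114. Tial1 was lost without KO replicate 1 of E16.5 as well (-0.84, adjusted p 0.0543). Its call was also lost with RLE factors in place of TMM (-0.74, adjusted p 0.0603) and in a fit of all 21 libraries (-0.83, adjusted p 0.0517). With a replicate block the HT calls of Nanos2, Nanos3 and Tial1 were lost (adjusted p 0.0515, 0.0512 and 0.0505). In KO, Dnd1 was lost without replicate 1 of E18.5 (-2.04, adjusted p 0.0672). Elavl2 was lost without that library (0.78, adjusted p 0.130) or without replicate 1 or 2 of E16.5 (1.05 and 0.96). Other calls were gained. Nanos3 in KO was called in 9 of the 27 alternatives, among them DESeq2 (-2.73, adjusted p 0.018) and repeat names in TMM (-2.90, adjusted p 0.0492). Tial1 in KO was called in 5. Some of these gains, for both genes, came on leaving out a library of neither group compared, such as HT replicate 3 of E16.5. Nanos3 was then at -2.86 and Tial1 at -0.82. With library weights in limma-voom Nanos2 was called in KO (-2.54, adjusted p 1.65e-05). Elavl2 in HT was called by DESeq2 (0.58, adjusted p 0.0447) and with library weights (0.79, adjusted p 8.62e-07). The 8 stromal and peritubular markers summed to 30.03 to 128 CPM at E16.5 and 181 to 239 CPM at E18.5, and the part of this in the falls was not tested.

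Between E18.5 and D2.5, 54.8% of all genes were called in HT (21.4% higher and 33.4% lower) and 55.2% in KO (21.1% higher and 34.2% lower). Of the 6 genes 3 were called higher and 1 lower in HT, and 2 each way in KO. For 4 of the 6 in each genotype the libraries of the 2 ages did not overlap, as for 65.4% of all genes in HT and 64.9% in KO. Dazl rose by 2.49 in HT (SE 0.270, adjusted p 3.21e-07) and by 2.72 in KO (SE 0.273, adjusted p 1.18e-07). Dnd1 fell again, by 2.00 in HT (SE 0.450, adjusted p 0.00101) and by 2.44 in KO (SE 0.466, adjusted p 0.000227), though with library weights in limma-voom the HT call was lost (-1.81, adjusted p 0.0597). Tial1 rose by 1.18 in HT (SE 0.269, adjusted p 0.00113) and by 0.93 in KO (SE 0.268, adjusted p 0.00667), to a range that overlapped that of E16.5. Elavl2 rose by 0.74 in HT (SE 0.219, adjusted p 0.00775) and had 0.39 in KO (adjusted p 0.134). Its KO value was called in 5 of the 27 alternatives, at 0.5 to 0.68. Among them were fits without HT replicate 1 or 3 of E16.5, which are not part of this contrast. Nanos2 had -0.64 in HT (adjusted p 0.567) and -1.39 in KO (adjusted p 0.231), with ranges of -2.42 to -0.02 and -2.55 to -0.69 when 1 library was left out. Nanos3 in HT had -0.88 (adjusted p 0.424). Nanos3 in KO was called, but on 59 counts against 2, a ratio of 15.1 with an exact counting interval of 3.99 to 127. Its call was lost in limma-voom (-3.22, adjusted p 0.0672), with library weights (-2.80, adjusted p 0.185) and without KO replicate 3 of D2.5 (-3.12, adjusted p 0.0723). Mki67 rose in the same interval, from at most 107 CPM in the E18.5 libraries to between 3418 and 5786 CPM in those of D2.5.

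Over all 21 libraries the levels of Nanos2 and Nanos3 had a Pearson r of 0.87 on the log2(CPM + 1) scale, as a description, since the libraries share ages. Nanos3 and Dnd1 had 0.86 and Nanos2 and Dnd1 had 0.80. Dnd1 ran against Elavl2 with -0.93 and against Dazl with -0.83. Among 14997 genes with a mean of at least 2 CPM, those most like Dnd1 were Wwp2 (0.98), Cct7 (0.97) and Fam132a (0.97). Those most like Dazl were Casc4, Cd164 and Egr3, each at 0.99. Nanos3 was closest to Rpl13 (0.95), Shisa5 (0.94) and Rpa1 (0.94), and Nanos2 to Polr2d, Polr2e and Snrnp200, at 0.92, 0.92 and 0.91. Elavl2 was closest to Zhx1, Mtus1 and Dgkk (0.96, 0.95 and 0.94), and Tial1 to Pank2, Tor1aip2 and Slc25a17 (0.93, 0.93 and 0.92).

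In the main tests no gene of the deadenylation and P-body lists, which include the CCR4-NOT subunits, was called between genotypes. Of 17 genes of CCR4-NOT and other deadenylation factors and of 13 P-body and decapping factors, edgeR called 0 in KO against HT at each of the ages and 0 in KO against WT. At an unadjusted p under 0.05, 0, 0, 1 and 2 deadenylation genes and 0, 0, 2 and 1 P-body genes were found in these 4 comparisons, and DESeq2 and limma-voom called 0. A fit of all 21 libraries called 1 gene of each list in KO against HT at D2.5. In HT against WT at D2.5 the alternatives called between 0 and 1 deadenylation genes. The values farthest from 0 at E16.5 were those of Parn, a deadenylase, at -0.55, and Eif4e, the cap-binding protein, at -0.47. At D2.5 in KO against HT they were Cnot3, a CCR4-NOT subunit, at -0.91, and Edc3, a decapping enhancer, at 1.36. Medians of both lists lay between -0.16 and 0.04 in the KO against HT comparisons, with those of all genes between -0.011 and -0.004.

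Relatives and partners of the 6 proteins, a list of 12 that includes Nanos1, Boll and the PUM proteins, gave 0 calls in each genotype comparison by edgeR, DESeq2 and limma-voom and 0 at an unadjusted p under 0.05. At E16.5, 11 of the 12 were tested. Of 21 other RNA-binding proteins of germ cells, edgeR called 0 in each, with 1 at an unadjusted p under 0.05 in KO against HT at each age and 2 in KO against WT. The nearest was Cpeb1, a cytoplasmic polyadenylation factor, at D2.5. Its WT libraries were at 74.2, 68.1 and 72.3 CPM, its HT libraries at 137, 69.5 and 98.8 CPM and its KO libraries at 35.5, 32.4 and 43.6 CPM. All 3 KO libraries lay below the other 6. KO did not overlap HT for 11.7% of all genes, and WT for 12.6%. KO differed from HT by -1.45 on the log2 scale (SE 0.304, adjusted p 0.0529 by edgeR) and -0.94 against WT (SE 0.302, adjusted p 0.352). DESeq2 called it against HT (adjusted p 0.000401) and limma-voom did not (adjusted p 0.0990). It was also called without a filter (adjusted p 0.00314), with a stricter filter (0.0423), in a fit of all 21 libraries (0.03) and without HT replicate 2 (0.0416), and was not called without any other single library.

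Of 16 mRNAs reported in the literature as targets of NANOS2, DND1 or DAZL, 15 had counts enough for a test, and 1 was called in a genotype comparison. Kit, the receptor of stem cell factor, was 62.4, 68.0 and 66.0 CPM in HT and 98.6, 106 and 104 CPM in KO at E18.5. The difference was 0.65 on the log2 scale (SE 0.138, adjusted p 0.0201 by edgeR), where 2.07% of all genes were called higher. The KO libraries were all above the HT libraries, and 13.7% of all genes were separated in one direction or the other. The call was lost without any HT library or without KO replicate 2 or 3 (0.61 to 0.67, adjusted p 0.0643 to 0.113), and in a fit of all 21 libraries (0.65, adjusted p 1). At E16.5 Kit had 0.20 (adjusted p 0.976) and at D2.5 -0.24 against HT (adjusted p 0.929). Sohlh2, a transcription factor of spermatogonia, did not overlap between HT and KO at E16.5 (17.9 and 6.41 CPM, -1.46, adjusted p 0.976), as held for 6.25% of all genes. The meiotic genes Stra8, Sycp1, Sycp3, Rec8 and Dmc1, which NANOS2 is known to hold down, were not called in KO against HT at any age.

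Between E16.5 and D2.5 in HT these lists split in both directions. Of the 17 deadenylation genes 8 rose and 6 fell, with Cnot6l, a catalytic subunit, at 2.15 (90.8 to 402 CPM) and Cnot3 at -2.12 (357 to 82.1 CPM). Of the 13 P-body genes 4 rose and 3 fell, among them Xrn1, an exonuclease, at 1.4 and Edc3 at -2.91. Among the 12 relatives 6 rose and 1 fell. Nanos1, the third gene of the NANOS family, rose from 9.18 to 53.1 CPM (2.53, adjusted p 9.49e-06) while Nanos2 and Nanos3 fell, and Boll, of the DAZ family, rose from 15.3 to 94.6 CPM (2.63, adjusted p 3.98e-08). Dazap1, a DAZL-associated protein, fell from 109 to 16.6 CPM (-2.72). For each list the call counts stand beside 20.2% of all genes called higher and 28.6% called lower.

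Of the 21 other RNA-binding proteins 12 rose and 2 fell in HT from E16.5 to D2.5, with a median of 0.82 against -0.32 for all genes. Meioc, a partner in meiotic entry, rose by 2.52 and Lin28b, which blocks let-7 maturation, by 2.04, while Ybx2 fell by 2.28 and Msi1 by 1.82. Of the 15 tested target mRNAs, which also hold Meioc, 9 rose and 4 fell. Sycp1, of the synaptonemal complex, rose from 162 to 1303 CPM (3.01), Dmc1 from 17.5 to 105 CPM (2.58) and Stra8, of meiotic entry, from 7.86 to 23.99 CPM (1.61). Sohlh1, a spermatogonial transcription factor, fell from 163 to 15.7 CPM (-3.38) and Rec8, a meiotic cohesin, from 20.3 to 3.20 CPM (-2.67). In KO the counts were 8 higher and 5 lower for deadenylation, 6 and 4 for P-bodies, 5 and 1 for relatives, 12 and 3 for other RNA-binding proteins and 10 and 3 for targets, beside 21.4% of all genes higher and 29.2% lower.

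**Figure D5:**
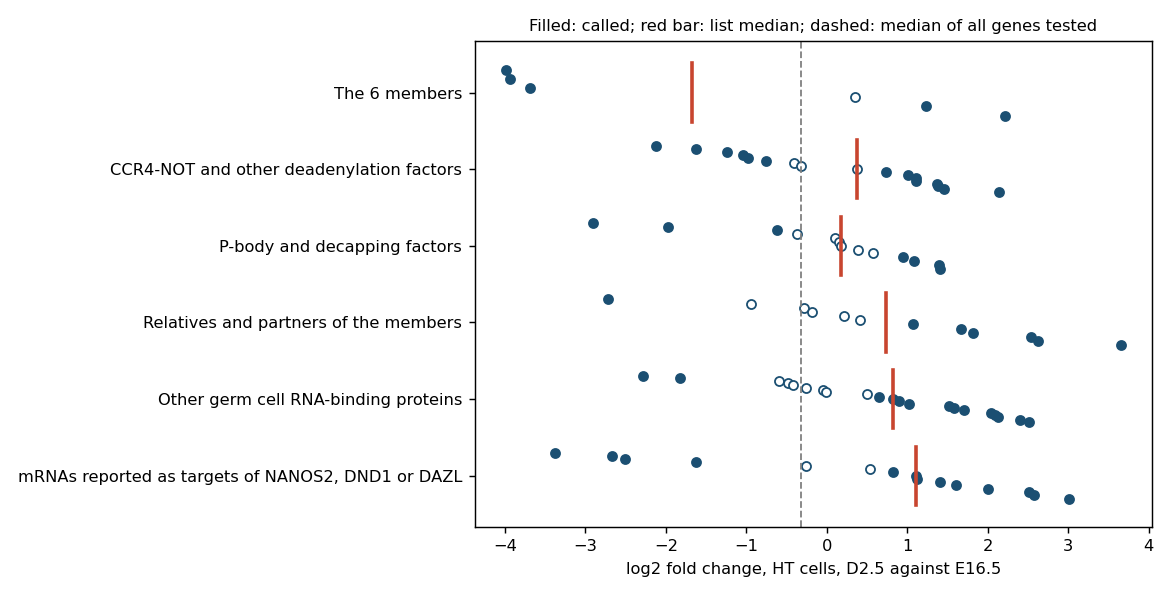
Log2 fold changes from E16.5 to D2.5 in HT (horizontal axis) of the 6 genes and of 5 lists of related genes (vertical axis), 1 point per gene. Filled points passed an edgeR adjusted p under 0.05, red bars are list medians and the dashed line is the median of all genes, -0.32. The 6 genes split into 3 near -4 and 3 above 0, and each list holds genes called in both directions.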

How the data were processed

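Total RNA of sorted germ cells was isolated with a PicoPure kit and made into libraries with NuGEN Ovation systems, per the labels' protocols. The authors deposited whole-number read counts for each gene and repeat name in 1 table for each age. STAR, Bowtie, featureCounts and edgeR, with the mm9 genome, are named in the submitters' processing notes, with no versions or roles. The deposited repeat family tables were not used here. No coordinates were converted from mm9, and lengths and promoters are from GRCm38.

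The 6 genes, the gene lists and the comparisons were chosen with earlier results of these data known. Counts of the 24495 gene rows were filtered in edgeR 4.0.16 (R 4.3.3) with filterByExpr (minimum count 10, minimum total 15). The rows that passed were fitted with TMM factors computed over them and two-sided quasi-likelihood tests, adjusted by Benjamini-Hochberg over all genes tested. The tests were also run on simulated counts. These were drawn independently for each gene, so shifts that many genes of a library share were not part of that check. Each fetal age was fitted alone, D2.5 with 9 libraries, and ages and differences of the KO effect in 1 fit of 18. SE was the log2 fold change divided by the square root of F. Biological variation between libraries (edgeR's common BCV) came to 37.3% for E16.5, 17.9% for E18.5, 55.4% for D2.5 and 40.4% in the fit of ages. The tests between ages pooled these unlike spreads, which limits their SEs, intervals and p-values. DESeq2 1.42.0 and limma 3.58.1 were alternatives.

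Beside the 6 genes and Tex15, the text names, for each list and KO comparison, the genes that passed or else those with the largest differences, and for each gene the 3 most alike over the libraries. Mki67, Dppa3 and Pou5f1, and the list genes named between ages, were chosen after their values were seen. At E18.5 same-numbered HT and KO libraries deviated together (r of 0.301, 0.208 and 0.107), so the numbers were taken to pair them there. The main tests, SEs and intervals at E18.5 did not use this pairing, which entered only as a replicate block among the alternatives. At E16.5 the r were 0.649, -0.062 and 0.799. Since replicate 2 did not deviate together there, the numbers were not taken to pair libraries at E16.5.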

Additional observations from a re-analysis of the deposited data

Results flagged for a closer look

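Tex15 itself, the gene that the KO cells lack, had a smaller deficit after birth. The log2 difference between KO and HT was 1.52 higher at D2.5 than at E18.5 (SE 0.245, edgeR adjusted p 0.0137), by a test of the difference itself. KO libraries were at 2.91 to 3.25 CPM at E18.5 and 15.9 to 23.6 CPM at D2.5, against 740 to 803 and 1765 to 2082 CPM in HT. No cause of this was tested. With 3 libraries in a group, no group was large enough for the check of single outlying libraries.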

How the results depend on the processing

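Of 972 values of single genes between ages, 900 kept their direction and their side of the threshold under the alternatives. So did 730 of 770 in the genotype comparisons and differences of the KO effect. Many alternatives between ages left out a library of neither group compared, so agreement there says little about the libraries compared. No alternative called any of the 6 genes between genotypes. Between E16.5 and D2.5 each alternative called Nanos2, Nanos3, Dazl, Dnd1 and Elavl2 in both genotypes, and Tial1 was called in HT without HT replicate 1 of E16.5 (0.67, adjusted p 0.0473). The cause of the shifts below was not tested, except where fewer libraries entered a fit. TMM factors that include repeat names moved the median of all genes by -0.138 in KO from E16.5 to E18.5 and by -0.129 (HT) and -0.14 (KO) from E16.5 to D2.5. In KO from E16.5 to E18.5 they moved the share of calls that were higher from 36.3% to 21.8%.

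Counts of all genes called changed by over 1.5 times as follows. DESeq2 called 6 genes in KO against HT at E16.5, and at D2.5 126 in KO against HT, 123 in KO against WT and 2 in HT against WT. Between E16.5 and E18.5 it called 3788 in HT and 2135 in KO, and 256 for the KO effect of D2.5 minus E18.5. Between E16.5 and E18.5 limma-voom called 5437 and 2617, and with library weights 12301 and 12029. With weights it also called 10 genes in KO against HT at E16.5, 369 for the KO effect of E18.5 minus E16.5 and 2 for that of D2.5 minus E18.5, and 5 of the 6 members in KO from E16.5 to E18.5. Without a filter 109, 110 and 4 genes were called at D2.5 in KO against HT, KO against WT and HT against WT, and in a fit of all 21 libraries 267, 261 and 16, with 5 at E18.5. Repeat names in TMM gave 1379 in KO from E16.5 to E18.5.

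Leaving out 1 library gave 197 to 392 genes in KO against HT at E18.5, 14 to 24 at D2.5, 19 to 40 in KO against WT and 1 to 2 in HT against WT. It gave 561 to 5074 from E16.5 to E18.5 in HT, with 1 to 4 members, 56 to 2053 in KO, with 0 to 4 members, and 4 to 30 for the KO effect of D2.5 minus E18.5. The replicate numbers were taken to pair libraries at E18.5 but not at E16.5 or D2.5 or between ages. A replicate block on them changed no member's call between genotypes. It gave 531 genes against 389 at E18.5 and 2 at E16.5, and from E16.5 to E18.5 in HT it left 1 of the 6 members called. At E18.5 2 of the HT libraries correlated best with their own number.

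Directions turned only for values that had not passed the test. With library weights these were Tial1 at E16.5 (0.06) and Nanos2 (0.05) and Dnd1 (0.25) at E18.5 in KO against HT, Dazl in KO from E16.5 to E18.5 (-0.16) and Tial1 in KO from E16.5 to D2.5 (-0.05). For the KO effect of E18.5 minus E16.5 they were Nanos3 (-0.16), Dazl (-0.13), Dnd1 (0.18) and Tial1 (-0.10). With repeat names in TMM they were Dazl at D2.5 against HT (0.01), Elavl2 against WT (0.01) and Dazl in KO from E16.5 to E18.5 (-0.10). Without 1 library the KO against HT values ran from -0.35 to 0.14 for Tial1 at E16.5. At E18.5 they ran from -0.61 to 0.04 for Nanos2, -0.61 to 0.12 for Nanos3, -0.42 to 0.45 for Dnd1, -0.13 to 0.06 for Tial1 and -0.01 to 0.28 for Elavl2. At D2.5 they ran from -2.26 to 0.88 for Nanos2 and -0.21 to 0.18 for Dazl. Against WT the ranges were -0.11 to 0.06 for Elavl2, -0.47 to 0.00 for Tial1, -0.36 to 0.02 for Dazl and -0.95 to 0.07 for Dnd1, and in HT against WT -2.34 to 0.64 for Nanos2 and -0.11 to 0.32 for Tial1. Between ages they were -0.60 to 0.12 for Dazl in HT and -0.23 to 0.09 in KO from E16.5 to E18.5, and -0.07 to 0.35 for Tial1 in KO from E16.5 to D2.5. For the KO effect of E18.5 minus E16.5 they were -0.03 to 1.16 for Nanos2, -0.35 to 0.80 for Nanos3, -0.18 to 0.54 for Dazl, -0.22 to 0.30 for Tial1 and -0.70 to 0.17 for Dnd1, and for D2.5 minus E18.5 -1.98 to 1.14 for Nanos2 and -0.52 to 0.01 for Tial1.

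At D2.5, where a count of 3 is worth 0.457 to 0.556 CPM, depth limits Nanos3, with 2 to 22 counts in a group.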
